A study of Mus musculus with 6 samples.

Results

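The genes described here are 10 genes of the major histocompatibility complex (MHC) class I pathway, a fixed list taken by symbol and not chosen by a value threshold. The list was chosen with earlier results of these data known. They are the heavy chains H2-K1 and H2-D1, their light chain B2m, the peptide transporter subunits Tap1 and Tap2, the loading factor Tapbp, the inducible proteasome subunits Psmb8, Psmb9 and Psmb10, and the transcriptional activator Nlrc5. All 10 were among the 21485 genes present in all 6 matrices, and all 10 were among the 14512 genes with enough counts to be tested. The samples were cultured mouse muscle-derived stem/progenitor cells (MDSPCs), cells that attach slowly to collagen and are enriched from digested skeletal muscle by repeated replating. There were 3 cell populations of young and 3 of old donor mice, grown in the same serum-rich proliferation medium and profiled by droplet-based 3′ single-cell RNA sequencing. The labels give no genetic modification, drug, strain, sex or numerical age for any group, and each population is a cultured line whose number of source animals is not given.

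MHC class I molecules show short peptides from inside a cell at its surface, where CD8+ T cells inspect them. Proteasomes cut proteins into peptides, the transporter formed by Tap1 and Tap2 carries them into the endoplasmic reticulum (ER), and tapasin, the product of Tapbp, holds an empty heavy chain and B2m beside the transporter until a peptide binds. Interferons raise most of these genes through interferon response elements and Nlrc5. Muscle fibres carry little class I at rest and display more of it in inflamed muscle.

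Counts were summed over the kept cells of each population, so the population was the replicate. The 61673 kept cells gave between 133683424 and 196258384 unique molecular identifiers (UMIs, tags that count each captured RNA molecule once) per sample. Young replicate 1 and old replicate 1 were counted on a shorter gene list than the other 4 samples, so the list was a term in the model and values within each list are given below. The populations differed widely within groups: the summed level of 10 myogenic markers spanned 431 to 2323 CPM (UMIs scaled to a total of 1000000 per sample) in the young and 364 to 3584 in the old. Defining markers of muscle progenitors were near 0 in single samples, Myf5 at 0.00748 CPM in young replicate 1 and Pax7 at 0.0265 CPM in young replicate 3. Old replicate 1 held 10.4 CPM of the Y-linked Ddx3y, against 0.464 to 1.56 CPM in the other samples. Of 62849 deposited barcodes, 61673 were kept. Among the kept ones, 437 occurred in 2 or more samples, with 23 to 35 shared by any pair of samples. The labels number the populations as biological replicates without saying whether they came from separate animals, so p-values measure only the spread between these populations. In the titles, the population names of old replicates 2 and 3 share a stem, which the labels do not explain.

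H2-K1 and B2m, which encode partners of the same surface complex, differed in how their levels fell between the groups, and the DNA upstream of their start sites is shown so that the letters can be read beside the values. Each run is the 250 bases before the RefSeq start on GRCm38.p6, 5′ to 3′ on the gene's strand, with matches to 3 searched motifs in capitals. H2-K1 is at chr17:34000348-34000597 on the minus strand and B2m at chr2:122147437-122147686 on the plus strand.
H2-K1: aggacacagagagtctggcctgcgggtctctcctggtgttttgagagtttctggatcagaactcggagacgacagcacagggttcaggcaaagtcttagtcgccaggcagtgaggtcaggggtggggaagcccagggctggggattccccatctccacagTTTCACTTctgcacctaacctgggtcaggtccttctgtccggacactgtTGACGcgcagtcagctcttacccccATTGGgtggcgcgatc
B2m: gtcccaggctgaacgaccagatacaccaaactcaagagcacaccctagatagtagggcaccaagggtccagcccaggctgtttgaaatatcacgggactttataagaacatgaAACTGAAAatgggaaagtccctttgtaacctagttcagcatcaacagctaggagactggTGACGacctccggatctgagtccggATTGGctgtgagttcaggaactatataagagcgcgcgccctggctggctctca
The motifs were AANNGAAA, the core of interferon response elements, TGACG, the cyclic AMP response core found in the X box of class I promoters, and ATTGG, an inverted CCAAT box bound by NF-Y. They were searched on both strands and could overlap. Both windows held each motif once, in the same order toward the start site, and the first match in H2-K1 is read on the opposite strand. Of 32851 windows of 250 bases in RefSeq, 21.3% held AANNGAAA, 17.8% TGACG, 33.8% ATTGG and 1.08% all 3. Windows were found for 8 of the 10 genes. All 3 motifs occurred in H2-K1, H2-D1 and B2m, whereas the Psmb8 and Psmb10 windows held none of them. A match describes letters only and does not show a bound site.

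Among the more abundant genes of the list, the heavy chain H2-K1 was the one whose young and old samples did not overlap, with every old sample higher. Values are unscaled CPM in the order of replicates 1, 2 and 3 throughout. H2-K1 (ENSMUSG00000061232, chromosome 17, 33996017 to 34000347 on GRCm38) encodes a classical heavy chain and stood at 12.0, 7.18 and 14.8 CPM in young replicates, against 84.9, 43.2 and 23.2 CPM in old ones. The young samples lay close together, and old replicate 1 was well above the other old samples. Young samples averaged 11.3 ± 3.85 CPM and old samples 50.5 ± 31.5 CPM (SD, n = 3 per group). The fitted log2 fold change was 1.92 (SE 0.39), which did not pass the threshold over all genes (edgeR quasi-likelihood test with Benjamini-Hochberg adjustment, unadjusted p = 0.00302, adjusted p = 0.912). DESeq2, run on the same counts, gave an adjusted p of 0.00412. H2-D1 (ENSMUSG00000073411, chromosome 17, 35262730 to 35267499), the other classical heavy chain measured, stood at 41.9, 11.8 and 21.9 CPM in young replicates, against 143, 41.2 and 25.3 CPM in old ones. Old replicate 1 was far above the rest, and the other old samples overlapped with young replicate 1. Its log2 fold change was 1.16 (SE 0.30; edgeR adjusted p = 0.9999, DESeq2 adjusted p = 0.110). On the longer gene list alone, with 2 samples a group, the log2 fold changes were 1.66 for H2-K1 and 1.05 for H2-D1. Since the model has a gene list term and the shorter list holds 1 sample a group, leaving out either first replicate removes both from the group difference and gives this same fit, so the fit cannot show the effect of old replicate 1 by itself.

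H2-K1 and H2-D1 are closely related, and their reference transcripts matched at 91.6% of 1576 aligned bases. None of the 411 windows of 90 bases, the read length, in the last 500 bases of either transcript occurred in another gene. These are reference alleles, and the strain of the mice is not given, so reads of another haplotype could be assigned differently. H2-D1 made up 77.7%, 62.1% and 59.7% of the UMIs of both heavy chains in young replicates, against 62.7%, 48.8% and 52.1% in old ones. The groups overlapped, with a difference of -12.0 percentage points (two-sided exact permutation test, p = 0.3, smallest possible p 0.1), or -6.35 points without young replicate 1.

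B2m (ENSMUSG00000060802, chromosome 2, 122147686 to 122153083) encodes the light chain shared by all class I molecules. It was present at 480, 92.7 and 184 CPM in young replicates, against 299.7, 169 and 116 CPM in old ones. Young replicate 1 was highest and young replicate 2 lowest, so that the old samples lay inside the young range. The log2 fold change was -0.28 (SE 0.39; edgeR adjusted p = 0.9999), and it was 0.11 on the longer gene list alone. The level of B2m set against its partners separated the groups. Young samples held 8.91, 4.89 and 5.02 B2m UMIs per UMI of H2-K1 and H2-D1 together, and old samples held 1.32, 2.00 and 2.40. Each captured molecule counts once in 3′ UMI data whatever its length, though capture can differ between genes. Every old sample was below every young sample in this ratio, which was 3.30 times higher on average in the young. The ratio was chosen after the values of its genes were seen and was not tested.

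**Figure D1:**
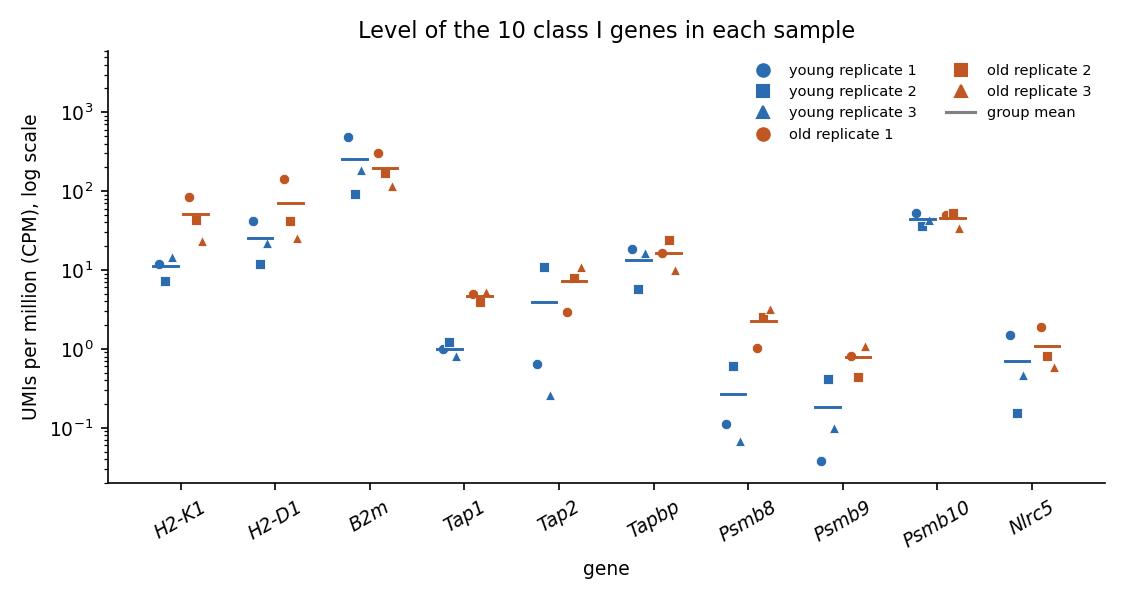
CPM of each of the 10 genes on a log axis, with young samples in blue, old samples in orange, a symbol shape per replicate number and horizontal lines at the group means. H2-K1, Tap1, Psmb8 and Psmb9 are the genes whose young and old points do not overlap, and B2m and Psmb10 points intermix.

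The transporter subunits differed from each other. Tap1 (ENSMUSG00000037321, chromosome 17, 34187553 to 34197225) was at 0.988, 1.23 and 0.805 CPM in young replicates, against 4.93, 3.93 and 5.29 CPM in old ones. Both groups were tight and far apart, with means of 1.01 ± 0.214 and 4.72 ± 0.708 CPM (SD, n = 3 each). Old over young, the fitted change was 2.14 on the log2 scale (SE 0.47; unadjusted p = 0.00441 and adjusted p = 0.9999 in edgeR; DESeq2 adjusted p = 1.24e-05). Leaving out single samples gave values between 1.92 and 2.33, a narrow range for this list. Tap2 (ENSMUSG00000024339, chromosome 17, 34203527 to 34216321), the other part of the same transporter, was at 0.651, 11.0 and 0.259 CPM in young replicates, against 2.91, 7.91 and 11.0 CPM in old ones. Young replicate 2 was as high as the highest old sample, while the other young samples were the lowest of all. The 6 samples spanned 42.5-fold. The log2 fold change of Tap2 was 1.10 (SE 1.19; edgeR adjusted p = 0.9999), and it ranged from 0.58 without young replicate 3 to 3.67 without young replicate 2. Tap1 made up 60.3%, 10.1% and 75.6% of the UMIs of both subunits in young replicates, against 62.9%, 33.2% and 32.4% in old ones. The samples with low Tap1 shares, young replicate 2 and old replicates 2 and 3, were those with the highest sums of myogenic markers, at 2323, 1793 and 3584 CPM against 364 to 451 CPM in the others. The part of myogenic state in the Tap2 level was not tested between groups. Tapbp (ENSMUSG00000024308, chromosome 17, 33915899 to 33929292) stood at 18.3, 5.70 and 16.3 CPM in young replicates, against 16.3, 23.6 and 9.96 CPM in old ones. The groups overlapped, with old replicate 2 highest and young replicate 2 lowest, and gave a log2 fold change of 0.27 (SE 0.54) that turned to -0.18 without young replicate 2 and to -0.22 without old replicate 2.

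Among the inducible proteasome subunits, Psmb8 and Psmb9 were rare, with every old sample above every young one, whereas Psmb10 was abundant and did not separate the groups. These subunits replace the catalytic subunits Psmb5, Psmb6 and Psmb7 of the constitutive proteasome and change which peptides are cut. Psmb8 (ENSMUSG00000024338, chromosome 17, 34197721 to 34201454) stood at 0.112, 0.615 and 0.0688 CPM in young replicates, from 15, 119 and 13 UMIs, against 1.02, 2.51 and 3.21 CPM in old ones, from 154, 446 and 587 UMIs. All old samples were above all young samples, and young replicate 2 was the highest of its group. Its fitted log2 difference was 2.99 (SE 0.95; unadjusted p = 0.0213 and adjusted p = 0.9999 in edgeR; DESeq2 adjusted p = 0.0298). Leaving out single samples moved it from 2.46 without young replicate 3 to 4.25 without young replicate 2. Psmb9 (ENSMUSG00000096727, chromosome 17, 34181987 to 34187764) stood at 0.0374, 0.419 and 0.101 CPM in young replicates, against 0.813, 0.445 and 1.10 CPM in old ones. The groups did not overlap, but the margin rested on 81 UMIs in young replicate 2 against 79 in old replicate 2. In edgeR the log2 fold change was 2.34 (SE 1.00; unadjusted p = 0.0612, adjusted p = 0.9999; DESeq2 adjusted p = 0.282), and it was 3.45 without young replicate 2 and 1.62 on the longer gene list alone. Psmb10 (ENSMUSG00000031897, chromosome 8, 105935735 to 105938444) stood at 52.3, 36.6 and 43.0 CPM in young replicates, against 50.5, 52.2 and 33.6 CPM in old ones. It varied 1.55-fold over the 6 samples, the smallest span of the 10 genes, and its log2 fold change was -0.04 (SE 0.24), or 0.04 without old replicate 3 and 0.16 on the longer gene list alone.

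Set against the constitutive subunit that each replaces, Psmb8 again separated the groups and Psmb9 no longer did. Per 1000 Psmb5 UMIs there were 0.244, 1.09 and 0.176 Psmb8 UMIs in young replicates, against 2.20, 5.39 and 5.64 in old ones. The old samples were all higher, with a difference of 3.49 in mean log2 ratio (two-sided exact permutation test, p = 0.1, the smallest possible with 3 against 3). That difference was 4.29 without young replicate 2 and 2.97 without young replicate 3. Psmb5 lay between 390 and 569 CPM over the 6 samples, so this ratio largely restates the Psmb8 level and is not a further result. Per 1000 Psmb6 UMIs there were 0.120, 0.990 and 0.278 Psmb9 UMIs in young replicates, against 2.48, 0.861 and 2.09 in old ones. Old replicate 2 fell below young replicate 2 here, and the difference of 2.36 in mean log2 ratio had an exact permutation p of 0.2. It was 1.35 on the longer gene list alone, 1.65 without young replicate 1 and 3.17 without young replicate 2. Psmb10 gave 335, 243 and 390 UMIs per 1000 Psmb7 UMIs in young replicates, against 266, 404 and 214 in old ones, a difference of -0.15 in mean log2 ratio (exact permutation p = 0.8). Of the 3 ratios tested, none could pass 0.05 at this sample number.

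**Figure D2:**
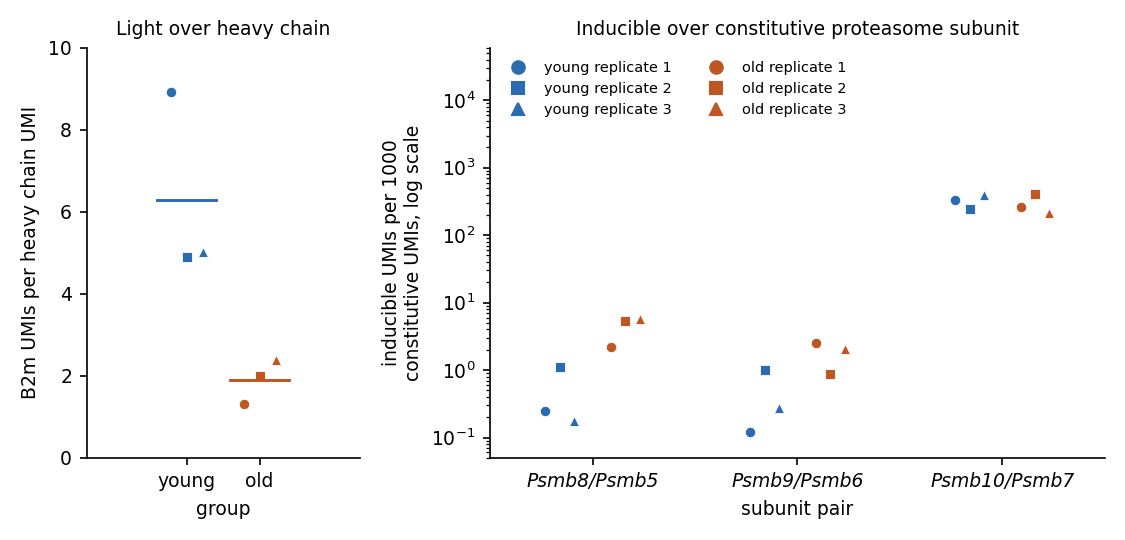
Left, B2m UMIs per UMI of H2-K1 and H2-D1 in each sample, with lines at the group means. Right, UMIs of each inducible subunit per 1000 UMIs of its constitutive counterpart on a log axis, where old points lie above all young points for Psmb8, overlap for Psmb9 and intermix for Psmb10.

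Nlrc5 (ENSMUSG00000074151, chromosome 8, 94434356 to 94527272), the activator that works at class I promoters, was counted only 30 to 286 times per sample. It stood at 1.50, 0.155 and 0.461 CPM in young replicates, against 1.89, 0.817 and 0.597 CPM in old ones. The groups overlapped because young replicate 1 was above old replicates 2 and 3. The log2 fold change was 0.84 (SE 0.68; edgeR adjusted p = 0.9999). It was 0.37 without young replicate 2, and 1.28 on the longer gene list alone.

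In the list as a whole, 8 of 10 genes had a positive fitted fold change, against 48.9% of all genes tested, and 2 a negative one. Because the list was chosen with earlier results of these data known, its counts beside all genes are descriptions. A fitted fold of 2 or more was reached by 6 of the 10, against 9.45% of all genes. None of the 10 passed the adjusted threshold in edgeR, where 0.00689% of all genes tested were called higher, the 1 called gene being Cyba, a subunit of the phagocyte NADPH oxidase. At an unadjusted p under 0.05, edgeR gave 4 of the 10, H2-K1, H2-D1, Tap1 and Psmb8, all higher in the old, against 2.51% of all genes tested that were higher in the old. DESeq2 called 3 of the 10 higher, H2-K1, Tap1 and Psmb8, against 1.42% of the genes it tested. In 4 of the 10, H2-K1, Tap1, Psmb8 and Psmb9, all old samples exceeded all young samples, against 5.02% of all genes, or 3.63% with TMM-scaled CPM, where these 4 were again apart. Psmb9, with 5 UMIs in young replicate 1, passed the filter on low counts only with the counts of the old samples. Its part in the counts of this paragraph is therefore partly set by that filter. In 0 of the 10 did all old samples lie below all young ones, against 0.903% of all genes. The median log2 fold change of the 10 genes was 1.13, and that of all genes tested was -0.01. On the longer gene list alone, with 2 samples a group, 6 of the 10 were apart with the old samples higher, namely those 4 with H2-D1 and Nlrc5, against 17.3% of all genes. On the shorter list, with 1 sample a group and no test, 7 of the 10 were higher in the old sample. That share was below the 75.4% of all genes that were higher in the same sample before scaling. The old sample had 7.09 times the H2-K1, 3.41 times the H2-D1 and 4.99 times the Tap1 CPM of the young sample on that list, and 0.625 times the B2m.

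**Figure D3:**
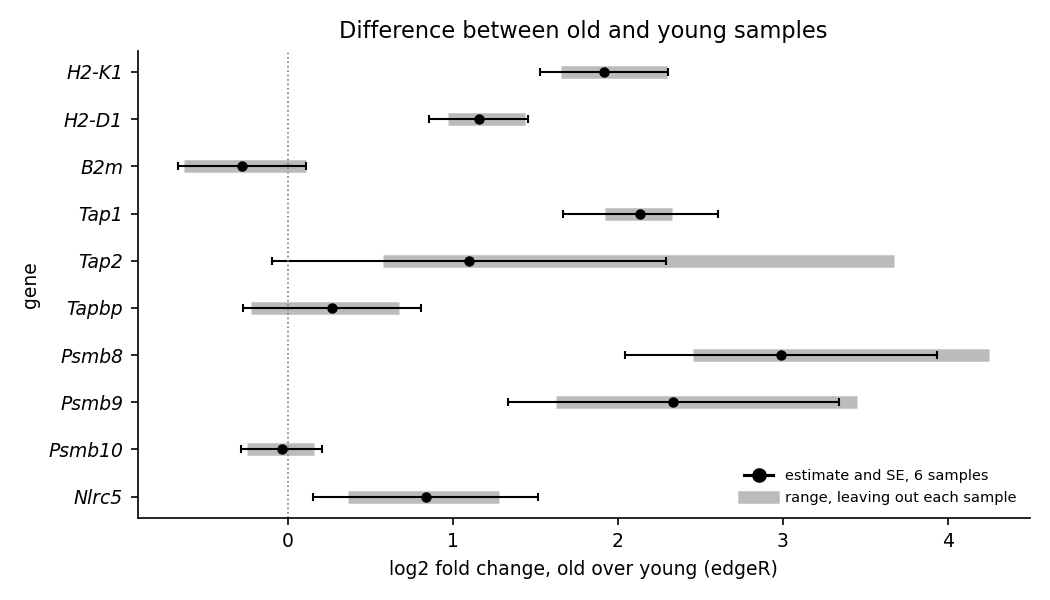
Log2 fold change of old over young from edgeR for each gene, with points and whiskers for the estimate and its SE over 6 samples and grey bars for the range when each sample was left out in turn. The bars of H2-K1, H2-D1, Tap1, Tap2, Psmb8, Psmb9 and Nlrc5 stay above 0, whereas those of B2m, Tapbp and Psmb10 cross it.

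The share of cells in which a gene was seen followed the summed levels, so it restates them and is not a further result. The share of all genes without overlap in this measure was not computed. Each cell was thinned at random to 5000 UMIs, because deeper cells show more genes, and 539 shallower young cells and 829 shallower old cells were left out. H2-K1 was seen in 5.67%, 3.28% and 7.33% of young cells and in 31.9%, 17.9% and 10.4% of old cells, a difference of 14.7 percentage points with no overlap (two-sided exact permutation test, p = 0.1, the smallest possible). Without old replicate 1 the difference was 8.76 points. Unthinned, the H2-K1 shares were 14.9%, 10.3% and 20.5% in young replicates, against 59.9%, 47.4% and 25.2% in old ones. Tap1 was seen in 0.545%, 0.507% and 0.301% of young and 2.38%, 1.99% and 2.58% of old cells, also without overlap (exact permutation p = 0.1). Unthinned, the Tap1 shares were 1.38%, 2.08% and 1.22% in young replicates, against 6.79%, 7.39% and 7.10% in old ones. H2-D1 was seen in 18.5%, 5.80% and 11.0% of young and 49.1%, 18.1% and 11.3% of old cells. The H2-D1 shares overlapped, since young replicate 1 exceeded old replicates 2 and 3 (exact permutation p = 0.4), with a difference of 14.4 points that was 2.96 without old replicate 1. They overlapped without thinning too, at 17.6% to 42.4% and 26.4% to 79.8%. B2m was seen in 86.8%, 36.9% and 59.3% of young and 73.6%, 53.7% and 39.4% of old cells, with full overlap (exact permutation p = 0.8), and unthinned in 75.3% to 97.0% of young and 68.8% to 94.3% of old cells. Psmb8 was seen in 0.0947%, 0.329% and 0.0376% of young and 0.505%, 1.19% and 1.52% of old cells. Psmb9 was rarer still, in 0.0237%, 0.207% and 0.0753% of young and 0.363%, 0.259% and 0.534% of old cells. Neither overlapped between groups at this depth or without thinning (exact permutation p = 0.1 each), but Psmb9 did overlap when cells were thinned to 2500 UMIs (exact permutation p = 0.2). The other genes overlapped, with thinned shares over all 6 samples of 0.132% to 5.52% for Tap2, 2.84% to 11.0% for Tapbp, 15.5% to 22.5% for Psmb10 and 0.103% to 0.848% for Nlrc5. Shares were tested for all 10 genes, and no value can pass 0.05 in this design. Free RNA in droplets can give a UMI to a cell that does not make it, and its part was not tested, as nearly every nucleated cell makes class I RNA and no cell type here could serve as a blank.

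**Figure D4:**
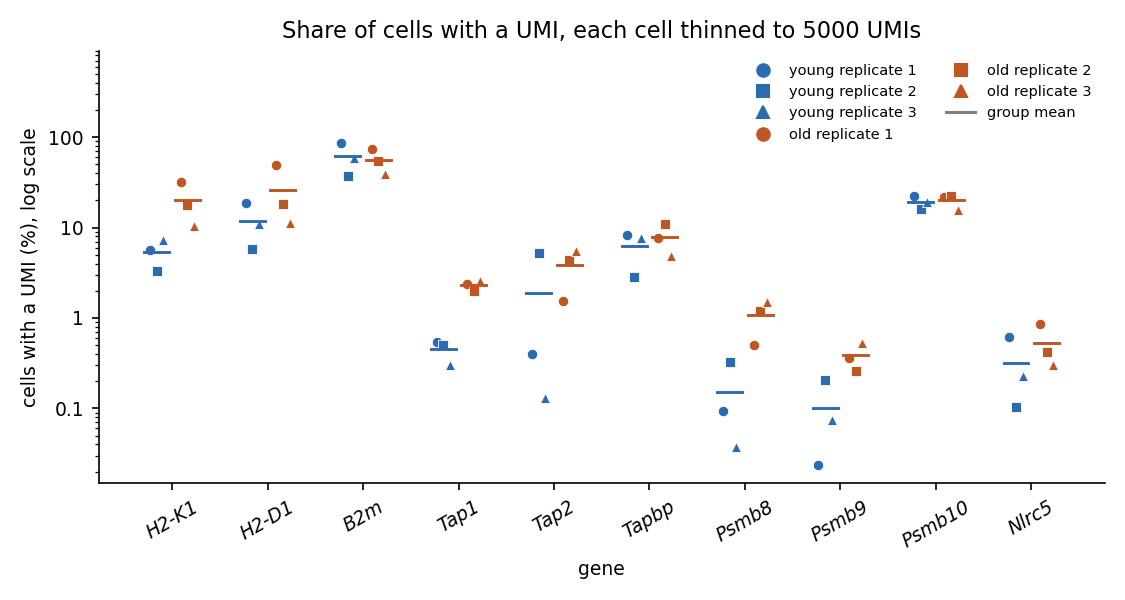
Percentage of cells with at least 1 UMI of each gene after thinning every cell to 5000 UMIs, on a log axis, with group means as lines. Old points lie above all young points for H2-K1, Tap1, Psmb8 and Psmb9, the same genes as in CPM, and H2-D1 old replicate 1 reaches 49.1%.

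Within samples, the spread over cells was described for H2-K1, H2-D1 and B2m, the chains of the class I molecule. For H2-K1 the variance of UMIs per thinned cell was 1.07 to 1.24 times the mean, for H2-D1 1.03 to 1.17 times and for B2m 1.05 to 1.39 times, where 1 is the value if molecules fell on cells at random. In old replicate 1, the 10% of cells with the most H2-K1 held 47.4% of its UMIs. A random fall of so few UMIs also fills the top cells unevenly, and that value was not computed. A UMI was held by 31.9% of cells, against 34.0% if molecules fell at random. For Tap1, Psmb8, Psmb9 and Nlrc5, at most 2.58% of the thinned cells of any sample held a UMI, and a ratio near 1 is then largely set by the low counts. Nlrc5 in old replicate 1 was the most uneven of the 10 genes, at 1.50 times, with up to 4 UMIs in a cell. Cells with an H2-K1 UMI had more H2-D1 and more B2m than the other cells of their sample in 6 of 6 samples. The ratio was 1.14 to 1.55 for H2-D1 and 1.08 to 1.27 for B2m. These cell-level values are descriptions, since cells of a sample are not replicates.

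Cells with a UMI of Myog, the factor that starts muscle differentiation, differed from the other cells of the same sample in several of these genes. How many of all genes were lower or higher in such cells in 6 of 6 samples was not counted. The counts below are therefore descriptions without a background. Such cells numbered 294, 2182 and 559 in young replicates, against 64, 1235 and 5565 in old ones after thinning. H2-D1 was lower in them in 6 of 6 samples, at 0.561 to 0.874 times its CPM in the other cells, and B2m was lower in 6 of 6, at 0.631 to 0.991 times. Psmb8 was lower in 6 of 6 too, but with 0 UMIs in such cells in young replicates 1 and 3 and old replicate 1. The other cells of those samples held 8, 4 and 51 Psmb8 UMIs, too few to make a UMI likely in the Myog cells. In young replicate 2 the Psmb8 ratio was 0.970. Tap2 was higher in 6 of 6 samples, at 1.39 to 3.70 times, although young replicate 1, young replicate 3 and old replicate 1 had only 4, 1 and 2 Tap2 UMIs in such cells. H2-K1 had no common direction, from 0.557 times in young replicate 1 to 2.66 times in young replicate 2. In the cells without a Myog UMI, H2-K1 stood at 12.2, 5.27 and 15.8 CPM in young replicates, against 83.3, 41.5 and 25.3 CPM in old ones, and Tap1 at 1.10, 1.02 and 0.655 against 4.94, 4.37 and 6.18 CPM. H2-K1, Tap1, Psmb8 and Psmb9 were higher in all old samples in these cells, against 5.61% of all genes tested. Cells without a Myog UMI were the larger part of every sample, so this count largely restates the whole samples. Psmb9 rested there on 2, 16 and 8 UMIs in young replicates, against 36, 19 and 34 in old ones. In the cells with a Myog UMI, H2-K1 and Tap1 were higher in all old samples, against 3.27% of all genes, and Psmb8 and Psmb9 overlapped. Tap1 rested there on 2, 11 and 0 UMIs in young replicates and on 1 UMI in the 64 cells of old replicate 1.

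**Figure D5:**
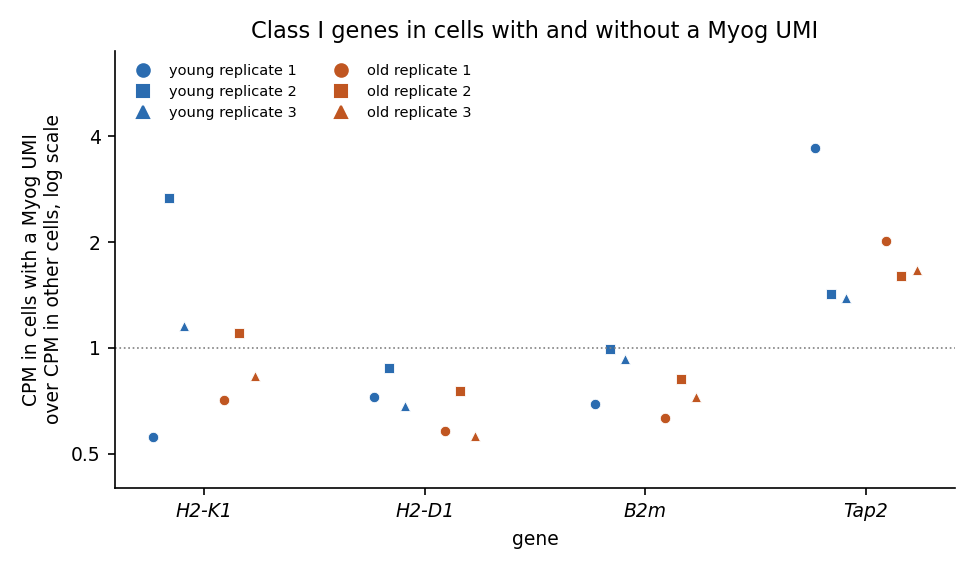
Ratio of the CPM in cells with a Myog UMI to the CPM in the other cells of the same sample, on a log axis with a dotted line at 1. All 6 points of H2-D1 and B2m lie below 1 and all 6 of Tap2 lie above it, while H2-K1 points lie on both sides.

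Other genes of the pathway gave no call in edgeR in any list. In ER loading, 9 of 10 listed genes were tested and 4 had a positive fold change, with a median of -0.09. They included the chaperone Calr, at 330, 318 and 455 CPM in young replicates, against 356, 396 and 236 CPM in old ones. Of 12 other proteasome genes, Psme2, a subunit of the interferon-inducible activator, was the only one with all old samples higher, against 5.02% of all genes, at 61.4, 58.1 and 58.3 CPM against 71.1, 96.0 and 72.1 CPM (log2 fold change 0.33, SE 0.24). It overlapped once CPM were scaled by the TMM factors. The median of these 12 was 0.03. Most other heavy chains were low, and 6 of 17 were tested in edgeR, with a median log2 fold change of -0.17. In young replicate 2, however, Cd1d1 and H2-T22 stood at 14.5 and 7.32 CPM, above H2-K1 at 7.18 CPM. Among them H2-M3, a nonclassical heavy chain that binds formylated peptides, stood at 1.06, 1.73 and 5.43 CPM in young replicates, against 6.97, 14.7 and 4.87 CPM in old ones (log2 fold change 1.78, SE 0.62; edgeR adjusted p = 0.9999). It overlapped through young replicate 3, and did not overlap once scaled by those factors. H2-Q4, left out of the edgeR test by its filter on low counts, was at 0.0225, 0.00517 and 0.0106 CPM in young replicates, against 0.476, 0.180 and 0.0274 CPM in old ones, from 1 to 3 UMIs and 5 to 72 UMIs per sample. The old samples were all higher, and DESeq2 gave an adjusted p of 0.0501.

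Of 20 regulators of class I transcription, 19 were tested, 12 had a positive fold change and the median was 0.03. Irf3, which carries the response to cytosolic nucleic acids, was the only one of the 19 without overlap, near the 5.02% of all genes, at 16.5, 16.7 and 18.1 CPM in young replicates, against 22.2, 18.6 and 19.1 CPM in old ones (log2 fold change 0.14, SE 0.19). Scaled by the TMM factors, Irf3 overlapped. Interferon ligands were near 0: Ifna4 was not counted in any sample and Ifnb1 and Ifng reached at most 0.0132 and 0.0103 CPM. The 9 tested receptors, kinases and inhibitors had a median of -0.21, and Ifngr1, a chain of the interferon gamma receptor, was the 1 of the 9 with all old samples higher, against 5.02% of all genes, at 12.8, 12.4 and 15.8 CPM against 17.1, 18.6 and 16.3 CPM. Of the interferon-stimulated genes, 15 of 18 tested had a positive fold change, against 48.9% of all genes, with a median of 0.86. Among those with a positive change, Gbp7, Ifit1 and Usp18 passed the low-count filter only with the counts of the old samples. That count and median are therefore partly set by the filter. In 2 of the 18, Ifi35 and Oasl2, all old samples were higher, against 5.02% of all genes. Ifi35 was at 12.1, 12.1 and 12.5 CPM in young replicates, against 22.6, 40.2 and 17.4 CPM in old ones (log2 fold change 1.02, SE 0.36; edgeR adjusted p = 0.9999). Rtp4 overlapped between groups, at 24.5, 0.357 and 2.42 CPM in young replicates, against 23.8, 4.00 and 3.28 CPM in old ones, with the high values in the samples on the shorter list. Of the 7 MHC class II genes, 4 were tested, 3 had a positive fold change and the median was 0.74. H2-Eb1, a class II beta chain, was the 1 of these 4 with all old samples higher, against 5.02% of all genes, from 3, 0 and 14 UMIs in young replicates, against 26, 14 and 26 in old ones (log2 fold change 1.95, SE 1.23; edgeR adjusted p = 0.9999). H2-Eb1 and H2-DMb1 passed the low-count filter only with the counts of the old samples. The lack of overlap of H2-Eb1, and the count and median of these 4, are therefore partly set by that filter. Ciita, the master activator of class II, was at most 0.0595 CPM.

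Markers of other cell types were read from the same counts, and those of immune and endothelial cells, which carry much class I, were scarce. The 12 immune markers summed to 2.65 to 9.13 CPM in the young and 3.06 to 7.49 CPM in the old samples, mostly Cd68, Csf1r and Fcer1g. Tyrobp was not counted in any sample and Ptprc, the pan-leukocyte marker, was at most 0.0528 CPM. The 6 endothelial markers summed to 0.479 to 1.21 CPM in the young and 0.580 to 1.37 CPM in the old. Cells with 2 or more UMIs of these lists numbered 169, 117 and 48 in young replicates, against 205, 179 and 42 in old ones. Without them the log2 fold changes were 1.91 for H2-K1, 2.15 for Tap1, 2.94 for Psmb8 and 2.32 for Psmb9. Of the 8 fibro-adipogenic markers, 7 were tested, with log2 fold changes from -1.83 for Smoc2 to 2.01 for Ly6a, and none passed the threshold in edgeR. Ly6a lay between 2.75 and 19.4 CPM in the young and between 19.7 and 126 CPM in the old (SE of the log2 fold change 1.22; edgeR adjusted p = 0.9999). It was the 1 of the 7 without overlap, by a narrow margin, against 5.02% of all genes with all old samples higher. Scaled by the TMM factors, Ly6a overlapped. Cd34 overlapped, at 5.61, 8.74 and 23.2 CPM against 119, 35.7 and 20.2 CPM. The 8 markers of that list summed to 283 to 446 CPM in the young and 299.1 to 511 CPM in the old samples, and their part in the class I levels was not tested. Of the 6 pericyte and smooth muscle markers, which summed to 25.1 to 96.6 CPM in the young and 14.5 to 46.4 CPM in the old samples, Rgs5 and Mcam were lower in every old sample, that is 2 of the 5 tested, against 0.903% of all genes. The other 3 tested, Myh11, Cspg4 and Notch3, overlapped. Rgs5, a pericyte marker, stood at 0.786, 3.16 and 10.3 CPM in young replicates, against 0.132, 0.524 and 0.230 CPM in old ones (log2 fold change -3.72, SE 0.73; adjusted p = 0.853 in edgeR and 2.76e-06 in DESeq2). Mcam, an adhesion molecule of pericytes and endothelium, stood at 4.13, 8.66 and 6.91 CPM in young replicates, against 1.09, 3.25 and 3.47 CPM in old ones (log2 fold change -1.53, SE 0.42; adjusted p = 0.9999 in edgeR and 0.0136 in DESeq2). Whether these markers bear on the class I levels was not tested.

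Of the 10 genes, 7 lie in the MHC on chromosome 17, within 1351.6 kb from 33915899 to 35267499 of GRCm38. Psmb9, Tap1, Psmb8 and Tap2 occupy 34.3 kb of it. Psmb9 and Tap1 are transcribed apart, and as drawn in GENCODE they overlap by 212 bases at their starts. By the RefSeq starts of the windows searched for motifs, they do not overlap. The 60 other tested genes in the interval had a median log2 fold change of -0.00386, and 4 of them, or 6.67%, were apart with the old samples higher, near the 5.02% of all genes. An antisense gene, Gm20496, overlaps Psmb8 and Tap2 and was counted at most 3 times in any of the 4 samples on the longer list, the only list that holds it. Whether strand was used in counting is not given in the sources used here.

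Over the 6 samples, levels of the 10 genes fell into loose sets, given as descriptions. Across log2 CPM, Pearson's r was 0.92 for H2-D1 and Nlrc5, 0.91 for Tap1 and Psmb8, 0.89 for Psmb8 and Psmb9 and 0.87 for H2-K1 and H2-D1, and it was -0.65 for B2m and Tap2. The samples share a culture medium but not a gene list, and these values include the differences between gene lists and between groups. The mean standardised profile of the 10 genes was highest in old replicate 1, at 0.83, and lowest in young replicate 2, at -0.76, with young replicate 1 at -0.09 close to old replicate 3 at 0.09. Among 6499 other genes with enough expression, the profiles most like it belonged to Kpna1, at r = 0.98, then Pbdc1, Sgpp1, Yae1d1, Klf5, Ubxn2a, Slc35b1 and, at r = 0.95, Cops6. With 6 samples, some of so many genes reach a high r by chance, and how many would was not computed. Kpna1, a nuclear import adaptor, stood at 24.1, 20.7 and 22.6 CPM in young replicates, against 33.6, 29.2 and 25.9 CPM in old ones.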

How the data were processed

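The authors deposited, for each sample, 1 matrix of raw UMI counts (genes by barcodes) from Cell Ranger 7.0.0 (young and old replicate 1, 21849 features) or 7.2.0 (the others, 32285 features), per the file headers. The build mm10 and Seurat 5.134 are named in the submitters' processing notes. The treatment of intronic reads, strand and doublets is not given in the sources used here. The genes and lists were chosen with earlier results of these data known.

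Cells with at least 1000 UMIs, 500 genes and under 15% mitochondrial UMIs (13 genes) were kept, leaving 61673 with median depths of 13001 to 19951 UMIs. No doublet caller was run. Counts of the 21485 shared genes, 98.5% to 99.9% of UMIs, were summed per sample. They were tested with edgeR 4.0.16 (R 4.3.3; TMM, filterByExpr by group, robust two-sided quasi-likelihood F test, gene list and group terms) and Benjamini-Hochberg adjustment at 0.05. Fitted changes are log2, old over young, with the SE taken as the absolute fold change over the root of F. DESeq2 1.42.0 was an alternative. The script was tested on simulated data with a smaller spread between samples than these data have. Their common biological coefficient of variation was 0.563, so that test does not show the power of edgeR here. Shares and ratios had 1 value per sample and two-sided exact permutation tests (20 assignments). CPM is unscaled unless said otherwise.

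Genes named were the 10 of the list, up to 6 per pathway list by mean CPM and the 8 of highest r to the mean profile (mean log2 CPM of 4 or more, pseudocount 0.1 CPM). Psme2, Irf3, Oasl2, Gm20496, Ddx3y and genes without overlap or near 0 outside that rule were named after their values were seen. Sequences are from RefSeq (GRCm38.p6) and positions from GENCODE (GRCm38). Replicate numbers did not pair the samples. Alternatives covered the tool, scaling, low-count and cell filters, list term, replicate block, thinning depth and each sample left out.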

Additional observations from a re-analysis of the deposited data

Results flagged for a closer look

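The class I, class II and interferon-stimulated genes H2-Q5, H2-Bl, H2-T10, H2-Ea, Mx1 and Mx2 are on the shorter gene list alone and were outside the comparisons. Just young replicate 1 and old replicate 1 carry values for them, so a difference has no replicate check, and the remaining genes of that list were not looked at. Of these 6, H2-T10 and Mx1 had a CPM in the old sample above the exact 95% Poisson upper limit of the young count scaled to CPM. These CPM are unscaled, and 75.4% of all genes tested were higher in old than in young replicate 1 on that scale. With the TMM factors, 0.848 in young and 1.11 in old replicate 1, Mx1 would not exceed that limit. H2-T10, a nonclassical class I heavy chain, was counted 162 times in old replicate 1, or 1.07 CPM, and 4 times in young replicate 1, or 0.0299 CPM. Mx1, an interferon-induced antiviral gene, was counted 5 times in old replicate 1 and 0 times in young replicate 1. Mx2 was counted 12 times in old replicate 1, or 0.0793 CPM, and 5 times in young replicate 1, or 0.0374 CPM, and stayed below that limit. The intervals cover counting error only.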

How the results depend on the processing

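In edgeR, 1 gene of all tested passed the threshold. DESeq2 called 263, of which 221 were higher and 42 lower in the old samples. The count was 0 without the gene list term (501 at an unadjusted p under 0.05) and 0 on the longer gene list alone (998), and leaving out each sample in turn gave 0 to 3. With a replicate block in place of the list term it was 1. The numbers do not pair the samples: deviations of same-numbered samples correlated at 0.38, 0.22 and -0.08, and 1 of 3 young samples correlated best with its own number. The block gave log2 fold changes of 1.95 for H2-K1, 2.15 for Tap1, 3.38 for Psmb8 and 2.09 for Tap2. It changed no call among the 10 genes.

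Several directions depended on the samples used. In the edgeR fits, leaving out either first replicate equals the longer list alone. The log2 fold change of B2m became 0.11 on the longer list alone and ranged from -0.63 to 0.11 over the samples left out. That of Psmb10 became 0.16 on the longer list and ranged from -0.25 to 0.16, and that of Tapbp ranged from -0.22 to 0.68. Over the samples left out, differences in the share of cells ranged from -17.5 to 7.48 percentage points for B2m, from -0.0699 to 3.13 for Tapbp, which was 4.29 without thinning, and from -0.698 to 3.01 for Psmb10. The log2 ratio of Psmb10 to Psmb7 differed by -0.408 to 0.051 over the samples left out. The cause was not tested. H2-K1, H2-D1, Tap1, Tap2, Psmb8, Psmb9 and Nlrc5 kept a positive log2 fold change under all 16 alternatives. DESeq2 put H2-K1, Tap1 and Psmb8 past the threshold. Counts were as low as 5 to 30 UMIs in the lowest samples of Psmb8, Psmb9 and Nlrc5.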
